A study of Mus musculus with 2 samples.

Results

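Expressed Zfp genes, the mouse genes named for zinc finger proteins, were described in cultured bone marrow progenitors treated with vehicle or with 4OHT. Cebpa RNA was at 109 FPKM with vehicle and 42.8 FPKM after 4OHT, so it was lowered and not absent. Members were selected from the deposited gene table as rows with a single symbol that starts with Zfp and a digit, and with at least 1 FPKM in the higher of the conditions. FPKM is a fragment count scaled by transcript length and sequencing depth. The rule kept 272 of 360 Zfp rows, out of 23309 rows in all and 10989 rows of at least 1 FPKM. Of the 272 members, 262 reached 1 FPKM in both conditions, 9 only after 4OHT and 1 only with vehicle. The 88 Zfp rows below 1 FPKM included 22 listed at 0 in both conditions. Just inside the limit lay Zfp287 (0.961 FPKM with vehicle and 1.00 FPKM after 4OHT), Zfp882 (0.842 and 1.02 FPKM) and Zfp316 (0.760 and 1.06 FPKM). Just outside it lay Zfp97 (0.908 and 1.00 FPKM, rounded up from below the limit), Zfp93 (0.796 and 0.944 FPKM) and Zfp551 (0.847 and 0.926 FPKM).

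Both groups were lineage-depleted mouse bone marrow of genotype Cebpaf/f;CreER, with loxP-flanked Cebpa and a tamoxifen-dependent Cre, carrying the retroviral vectors MIGR1-Flag-Meis1 and MIGR1-HA-Hoxa9 and grown with IL3. One group received EtOH, the vehicle, for 72 h, and the other 5 nM 4OHT for 72 h. Each group is 1 deposited sample that joins 2 replicates, so each gene has 1 value per condition, no spread between replicates can be given, and no test was run. The labels do not name the promoter that drives CreER, the animals' age or the number of animals, and no 4OHT-treated cells without CreER are analysed here, so Cebpa loss and other effects of 4OHT or Cre cannot be told apart. A gene is called higher or lower, and is said to have risen or fallen, where the authors' deposited table gives it the status OK and a q under 0.05.

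Most Zfp proteins carry C2H2 zinc fingers, short loops in which a pair of cysteines and a pair of histidines hold a zinc ion and a helix reads DNA. Many also carry a KRAB domain, which binds the corepressor Trim28. Trim28 in turn brings the histone methyltransferase Setdb1 and heterochromatin proteins, and KRAB proteins are known for silencing transposable elements and retroviruses. KRAB genes lie in clusters that grew by duplication. A few Zfp names belong to other families, such as Zfp36 and its paralogs, whose CCCH fingers bind AU-rich elements of mRNA and bring the CCR4-NOT deadenylase.

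The finger sequences show how the members with the largest changes differ in kind. The CCCH motif was read as cysteine, 8 residues, cysteine, 5 residues, cysteine, 3 residues, histidine, and it occurred 2 times in each of Zfp36, Zfp36l1 and Zfp36l2. The coding bases of both fingers are given 5′ to 3′ from GENCODE M21 transcripts, with the codons of the zinc-binding residues in capitals.
Zfp36, finger 1: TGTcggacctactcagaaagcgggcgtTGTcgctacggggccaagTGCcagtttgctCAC
Zfp36l1, finger 1: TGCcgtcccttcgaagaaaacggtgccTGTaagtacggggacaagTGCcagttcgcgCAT
Zfp36l2, finger 1: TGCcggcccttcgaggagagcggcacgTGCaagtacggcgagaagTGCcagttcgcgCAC
Zfp36, finger 2: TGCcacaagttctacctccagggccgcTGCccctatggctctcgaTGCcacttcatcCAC
Zfp36l1, finger 2: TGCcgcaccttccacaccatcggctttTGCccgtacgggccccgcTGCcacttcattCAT
Zfp36l2, finger 2: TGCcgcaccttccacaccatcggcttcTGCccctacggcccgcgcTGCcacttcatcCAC
Between Zfp36l1 and Zfp36l2, 49 of 60 bases were the same in finger 1 and 54 of 60 in finger 2, where all 20 encoded residues matched. Zfp36 shared 42 of 60 bases with Zfp36l1 in finger 1 and 40 of 60 in finger 2. No run of 50 coding bases of Zfp36l1 or Zfp36l2 occurred in the coding sequence of another gene.

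The other members that were called carry C2H2 fingers, read as cysteine, 2 residues, cysteine, 12 residues, histidine, 3 to 5 residues, histidine. The first finger of each is shown, again with the zinc-binding codons in capitals.
Zfp184, finger 1: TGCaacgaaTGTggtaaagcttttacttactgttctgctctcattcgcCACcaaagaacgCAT
Zfp385a, finger 1: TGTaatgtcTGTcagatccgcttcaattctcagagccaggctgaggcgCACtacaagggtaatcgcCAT
Zfp184 had 18 such fingers and the core of a KRAB domain. Zfp385a had 3 fingers and no KRAB core, and each of its fingers spanned 69 coding bases where the Zfp184 finger spanned 63. The longer form is the matrin type, known from proteins that bind RNA.

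Few Zfp genes passed the test. Of 272 members, 3 were called higher (1.10%) and 1 was called lower (0.368%), while of 10932 tested rows of at least 1 FPKM 2.70% were called higher, 3.10% lower and 5.80% in either direction. The members' share was below that background in both directions. Among the 262 members that reached 1 FPKM in both conditions, 2 were called higher (0.763%) and none lower. At an unadjusted deposited p under 0.05, 14 members were higher (5.15%) and 1 was lower (0.368%), beside 5.86% and 5.91% of the tested rows. Every member had the status OK. A further 206 members had a deposited q over 0.999. The 4 called genes were Zfp385a, Zfp36l2 and Zfp184, which rose, and Zfp36l1, which fell, and they were also the 4 members whose log2((4OHT FPKM + 1)/(vehicle FPKM + 1)) lay more than 0.5 from 0. That log2 ratio, with a pseudocount of 1 FPKM, understates the change of low genes and is the scale of every log2 ratio given here.

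**Figure D1:**
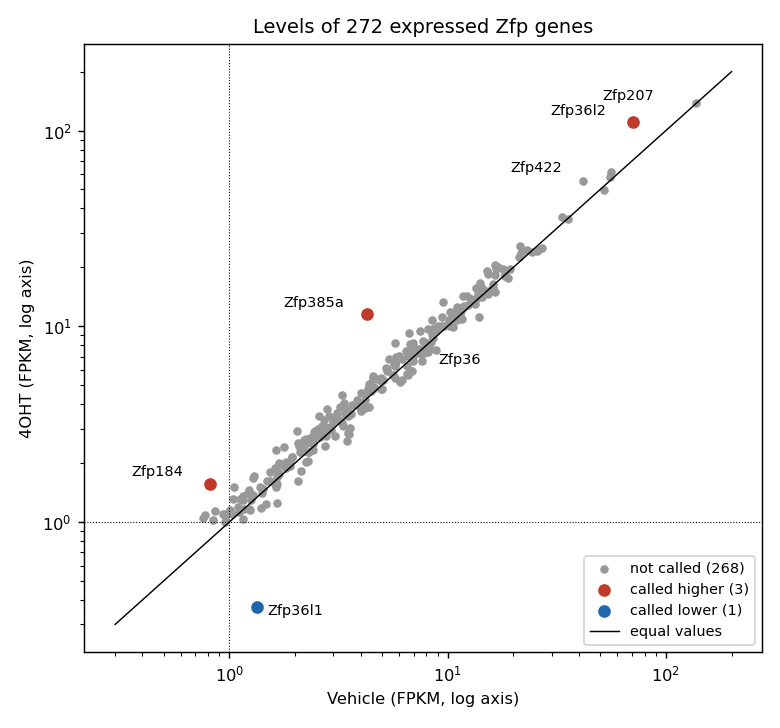
FPKM of the 272 expressed Zfp genes with vehicle (x axis) and after 4OHT (y axis), both on log axes, with 1 value per condition. Red points were called higher (3), the blue point lower (1) and grey points were not called (268). The dotted lines mark 1 FPKM and the solid line equal values. Most points lie close to the solid line, and Zfp385a, Zfp36l2, Zfp184 and Zfp36l1 lie away from it.

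Among the CCCH proteins, the paralogs moved in opposite directions. Zfp36l2, which promotes mRNA decay and is needed for definitive blood formation, stood at 70.8 FPKM with vehicle and 111 FPKM after 4OHT. It rose 1.57-fold, and the authors' deposited table gives it the smallest q it holds, 0.00165 (mm9 chromosome 17, 84583269 to 84587287). Other genes, such as Cebpa, Vegfa and Klf2, share that q, so it does not rank Zfp36l2 above them. Zfp36l1, a paralog with the same role in mRNA decay, stood at 1.34 FPKM with vehicle and 0.366 FPKM after 4OHT. It fell 3.64-fold, which left 27.4% of the vehicle value, and the authors' deposited table gives the same q of 0.00165 (chromosome 12, 81208747 to 81214000). Zfp36l1 was the member that met the 1 FPKM limit with vehicle alone, so its fall is tied to how it entered the set. Zfp36, the gene of tristetraprolin, had 8.09 FPKM with vehicle and 7.61 FPKM after 4OHT and was not called (chromosome 7, up to position 29164247). Per length, Zfp36l2 was the highest of the 3 in both conditions, and the 3 genes summed to 80.2 FPKM with vehicle and 119 FPKM after 4OHT.

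Genes tied to the CCCH proteins were listed as mRNA decay genes and as mRNAs with AU-rich elements. Of 19 listed CCR4-NOT and other mRNA decay genes, all at least 1 FPKM, none was called higher and 1 was called lower, and the median log2 ratio was 0.03. The gene that fell was Btg1, an antiproliferative partner of the deadenylase, from 11.6 to 7.31 FPKM. The scaffold Cnot1 had 44.7 and 47.7 FPKM, and the kinase gene Mapkapk2, which controls tristetraprolin, 144 and 124 FPKM. Of 19 listed mRNAs with AU-rich elements, 10 reached 1 FPKM, of which Il6 (5.13 to 10.1 FPKM) rose and Vegfa (47.4 to 19.4 FPKM) and Notch1 (5.79 to 3.84 FPKM) fell. Ptgs2, below the limit, fell from 0.637 to 0.212 FPKM. Tnf, the best known target of tristetraprolin, had 5.36 and 5.64 FPKM and was not called. The median log2 ratio of those 10 mRNAs was -0.05. The 3 calls among 10 stand beside 5.80% of tested rows of at least 1 FPKM, and 1 of 19 decay genes was 5.26%. Both lists were chosen with earlier results of these data known, so these shares are description only.

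Zfp385a rose more than any other member on the log2 scale. Zfp385a, also called Hzf, encodes an RNA-binding protein that is known as a p53 target. It had 4.27 FPKM with vehicle and 11.5 FPKM after 4OHT, 2.70-fold higher, with a log2 ratio of 1.25, and its q was 0.00165 by the authors' deposited table (mm9 chromosome 15, 103144326 to 103170517). Its paralog Zfp385c had 3.51 and 2.85 FPKM and was not called. Zfp184, a KRAB gene, rose 1.92-fold, from 0.820 to 1.57 FPKM, and its q by the authors' deposited table was 0.0388 (chromosome 13, 22036963 to 22052354). Zfp184 met the 1 FPKM limit after 4OHT alone, so its rise is tied to how it entered the set. Below the limit, Zfp831 rose from 0.451 to 0.824 FPKM (authors' deposited table, q of 0.0182) and was the 1 call among the 29 tested Zfp rows under 1 FPKM. Of all 11953 tested rows, with no limit on level, 2.80% were called higher, 3.11% lower and 5.91% in either direction.

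The members with the next smallest q all had the higher value after 4OHT and were not called. The authors' deposited table gives a q of 0.0565 for Zfp608, at 9.51 and 13.3 FPKM, and of 0.0667 for Zfp507, at 6.63 and 9.21 FPKM. By the authors' deposited table q was 0.154 for Zfp422, at 41.7 and 55.2 FPKM, and 0.170 for Zfp1, at 5.76 and 8.22 FPKM. Zfp113, with 2.80 and 3.77 FPKM, and Zfp157, with 2.57 and 3.47 FPKM, are neighbours on chromosome 5, and the authors' deposited table lists their q as 0.239 and 0.299. On the other side, the lowest log2 ratio after Zfp36l1 was that of Zfp57, at -0.30, with 3.46 and 2.61 FPKM.

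**Figure D2:**
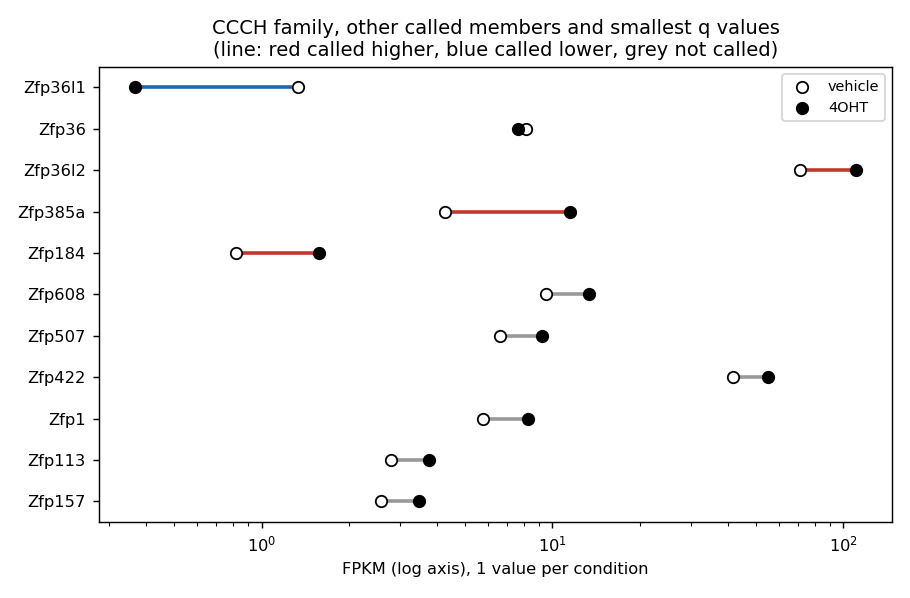
FPKM (x axis, log scale) with vehicle (open points) and after 4OHT (filled points) for the 3 CCCH genes, the other called members and the 6 uncalled members with the smallest q, 1 value per condition. Red lines join values of genes called higher, blue lower and grey not called. Zfp36l1 goes from 1.34 to 0.366 FPKM, Zfp36l2 from 70.8 to 111 FPKM, and all 6 grey lines below Zfp184 lead to a higher value after 4OHT.

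Of the 8 members with the highest mean FPKM, Zfp36l2 alone was called. Zfp207, whose product binds spindle microtubules and Bub3, was the highest, with 137 FPKM with vehicle and 138 FPKM after 4OHT. Zfp146 had 55.8 and 61.2 FPKM, Zfp706 55.6 and 57.8 FPKM, and Zfp330 51.9 and 49.8 FPKM. Zfp106, an RNA-binding protein gene, had 35.5 FPKM in both conditions, and Zfp91, the gene of a ubiquitin ligase, 33.3 and 36.3 FPKM. The Zfp91 locus overlaps that of Cntf, and a row that joins its symbol with another was not used here, so its reads may be shared. Most members were much lower than these. Their median was 4.96 FPKM with vehicle and 5.33 FPKM after 4OHT, 72 members reached 10 FPKM and 18 reached 20 FPKM, while other rows of at least 1 FPKM had medians of 16.1 and 15.9 FPKM.

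Among Zfp genes with a known part in blood cells or leukaemia, the calls were the CCCH genes already described. Of 12 listed genes 10 reached 1 FPKM, of which Zfp36l2 rose, Zfp36l1 fell and 8 were not called, and the median log2 ratio was 0.06. These 2 calls among 10 stand beside 1.47% of all members and 5.80% of tested rows of at least 1 FPKM. The list was chosen with earlier results of these data known, so this share is description only. Zfp335, needed for T cell maturation, had 11.04 and 10.7 FPKM. Zfp384, a fusion partner in acute leukaemia, had 19.2 and 19.5 FPKM, and Zfp410, which activates Chd4, 16.1 and 15.8 FPKM. Zfp148, which binds GC-rich promoters, had 9.31 and 10.04 FPKM, and the related Zfp281 7.69 and 8.41 FPKM. Zfp318, which sets the choice between IgM and IgD in B cells, had 0.987 and 1.12 FPKM. The remaining genes on the list were near or at 0. Zfp521, known from immature blood cells, had 0.00508 FPKM with vehicle and was listed at 0 after 4OHT, and its relative Zfp423 was listed at 0 in both conditions. In the list of genes known from embryonic stem cells and imprinting, 8 of 11 reached 1 FPKM and none was called in either direction at the deposited q or at an unadjusted p under 0.05. Their median was 0.07. Zfp445, which maintains imprints with Zfp57, had 23.0 and 24.6 FPKM.

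The machinery that KRAB proteins recruit was expressed throughout. Of 25 listed corepressor and heterochromatin genes, 24 matched a row and all 24 reached 1 FPKM. Among these genes, 2 rose (8.33%) and none fell, beside 2.70% called higher and 3.10% lower among tested rows of at least 1 FPKM. Their median log2 ratio was 0.10. Trim28 had 144 FPKM with vehicle and 157 FPKM after 4OHT and was not called. Setdb1 had 23.8 and 22.9 FPKM, and Cbx5, the gene of HP1 alpha, 37.1 and 38.2 FPKM. The genes that rose were Dnmt3b, a DNA methyltransferase (6.35 to 9.38 FPKM), and Chd3, a subunit of the NuRD remodelling complex (7.57 to 10.6 FPKM). The authors' deposited table gives a q of 0.0367 for Dnmt3b and of 0.0499 for Chd3, just under the threshold. Zfp809, a KRAB protein known for silencing murine retroviruses, had 8.82 and 9.85 FPKM and was not called.

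Small differences ran mostly one way across the members. After 4OHT 192 of 272 members had the higher value (70.6%), against 49.6% of the other 10717 rows of at least 1 FPKM. Their median log2 ratio was 0.08, with quartiles of -0.01 and 0.15, beside a median of 0.00 and quartiles of -0.10 and 0.10 in the other rows. Among the 262 members that reached 1 FPKM in both conditions, 183 had the higher value after 4OHT (69.8%). The interquartile range was 0.16 among members and 0.20 among other rows, which are higher in level. It was 0.12 against 0.28 between 1 and 2 FPKM, where the pseudocount narrows both, and 0.23 against 0.18 from 20 FPKM up, where the members were the wider. In all, 1.47% of members against 7.42% of other rows lay more than 0.5 from 0. With 1 value per condition none of these differences could be tested. Genes also share libraries and scaling, so their number does not stand for replicates.

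The share of members with the higher value after 4OHT exceeded that of other rows in each band of level, coding length and coding GC content compared. It was 75.5% against 54.2% between 1 and 2 FPKM, 67.9% against 54.9% between 2 and 5 FPKM, and 68.6% against 53.8% between 5 and 10 FPKM. The shares were 74.1% and 50.9% between 10 and 20 FPKM, and 66.7% and 45.4% from 20 FPKM up. Other rows moved with coding length too, from 42.5% with the higher value below 300 codons to 58.1% from 700 codons up. In those same classes the members stood at 78.9% and 72.5%. The members' median coding GC content was 48.2% and that of other rows 52.8%. Below 45% GC the shares were 72.4% of members and 52.0% of other rows, and from 55% GC up 69.3% and 49.6%. The part of level, length and base composition in the members' difference was not tested.

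**Figure D3:**
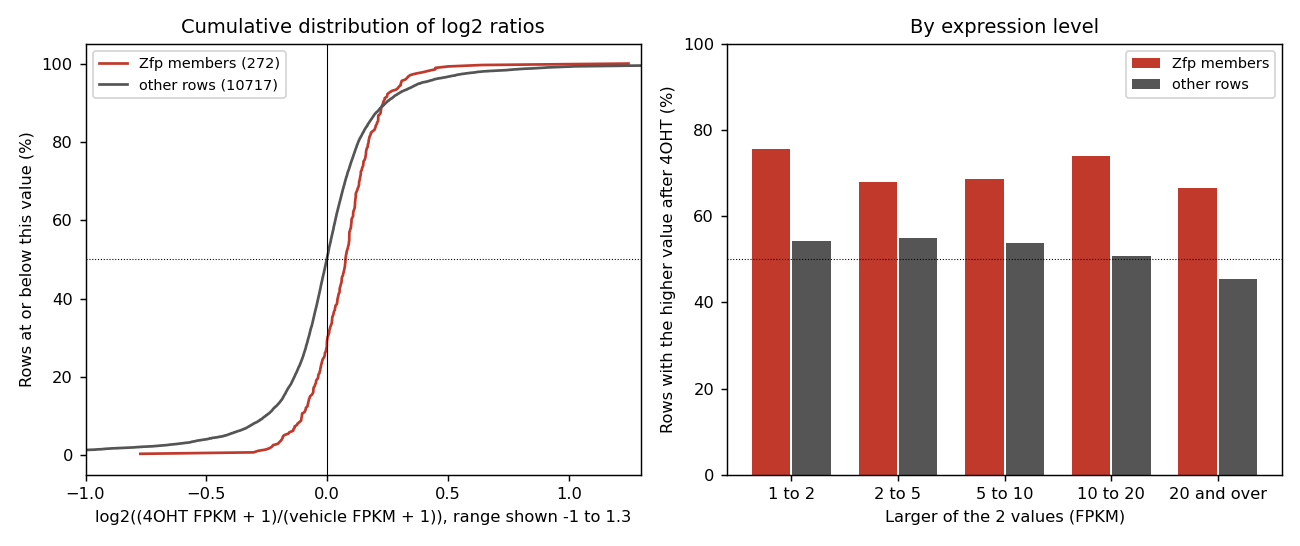
Left, cumulative share of rows (y axis, %) by log2((4OHT FPKM + 1)/(vehicle FPKM + 1)) (x axis, shown from -1 to 1.3) for 272 Zfp members (red) and 10717 other rows of at least 1 FPKM (grey). Right, share of rows with the higher value after 4OHT (y axis, %) by the larger of the values in FPKM. The red curve crosses 50% at 0.08 and the grey curve at 0.00, and the red bar is above the grey bar in each band.

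Zinc finger genes with other names also leaned to higher values after 4OHT, the Klf family excepted. Of 121 other rows whose coding sequence held 3 or more C2H2 fingers by the same pattern, 86 had the higher value after 4OHT (71.1%), with a median log2 ratio of 0.07. In this set 4 were called higher (3.31%) and 1 lower (0.826%), beside 2.70% and 3.10% of tested rows of at least 1 FPKM. The genes that rose were Gfi1b (5.31 to 15.6 FPKM), the PLZF gene Zbtb16 (2.18 to 4.24 FPKM), the GATA cofactor Zfpm1 (9.41 to 13.8 FPKM) and Tshz2 (0.415 to 1.21 FPKM). Snai3 fell from 3.68 to 1.31 FPKM. By name, 21 of 34 Zbtb rows and 13 of 15 Zscan and Zkscan rows had the higher value after 4OHT, with medians of 0.07 and 0.08. The 10 Klf rows are not among the 121, since the pattern finds 1 finger in each and misses those with wider spaced cysteines. Of these 10, 4 had the higher value after 4OHT and the median was -0.24. Klf2, a factor of quiescent blood cells, fell from 7.70 to 1.09 FPKM, 7.09-fold. At an unadjusted deposited p under 0.05, 3 of the 10 were lower and none higher, beside 5.91% and 5.86% of tested rows of at least 1 FPKM. With 2 to 4 residues allowed between the cysteines, a pattern added after the data were seen, the set held 142 rows with all 10 Klf genes. In it 98 had the higher value after 4OHT (69.0%), the median was 0.06, and 4 were called higher and 2 lower. These sets were not tested against the Zfp members.

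Members with and without a KRAB core both leaned to higher values after 4OHT. Coding sequences were matched for 269 members, of which 107 (39.8%) held a KRAB core and 237 held 3 or more C2H2 fingers by the pattern with cysteines 2 residues apart. The median was 10 fingers, 11 with a KRAB core and 8 without. Zfp142 had the most, 32, with 4.96 and 4.77 FPKM. With a KRAB core, 80 of 107 members had the higher value after 4OHT, 1 was called higher and the median was 0.08. Without one, 110 of 162 had the higher value, 2 were called higher and 1 lower, and the median was 0.08. The core was read by 1 fixed pattern, so members without it may still hold a KRAB domain that the pattern misses. Members with 2 fingers or fewer, among them the CCCH genes, had the higher value after 4OHT in 18 of 32 cases, with a median of 0.02. The counts were 21 of 33 with 3 to 5 fingers and 72 of 90 with 6 to 10. They were 47 of 73 with 11 to 15 fingers and 32 of 41 with 16 or more. The share thus did not follow finger number steadily. The difference between these classes was not tested. This pattern misses fingers with wider spaced cysteines, and the wider pattern was not applied to members. Some members counted with 2 fingers or fewer may therefore hold more.

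**Figure D4:**
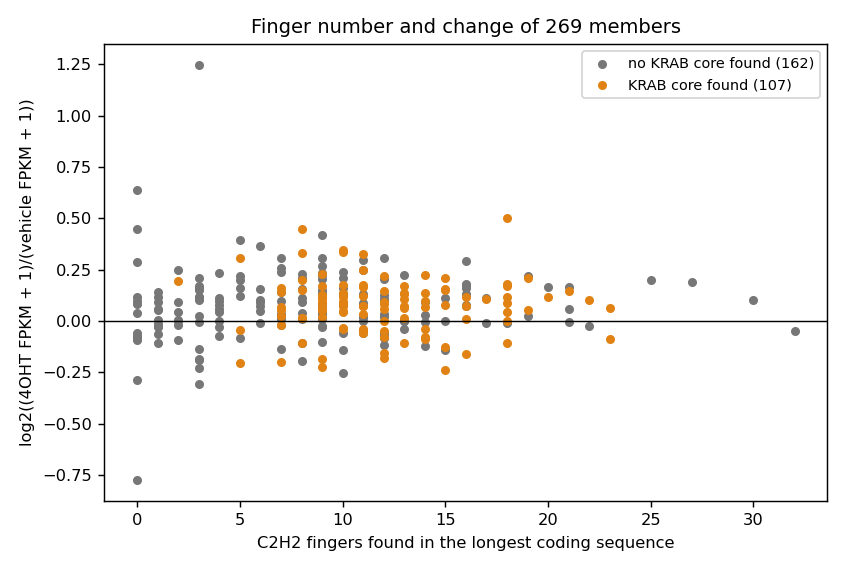
log2((4OHT FPKM + 1)/(vehicle FPKM + 1)) (y axis) of 269 members by the number of C2H2 fingers that the pattern found in the longest coding sequence (x axis), with a KRAB core found (orange, 107) or not found (grey, 162). The widest spread is among members with 3 fingers or fewer, where Zfp385a (1.25), Zfp36l2 (0.64) and Zfp36l1 (-0.77) lie, and most points with 16 or more fingers lie above 0.

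Clusters were taken as 3 or more members on a chromosome, each at most 1 Mb from the next. There were 22, on 10 chromosomes, with 154 members. None of the 154 was called at the deposited q, beside 5.80% of tested rows of at least 1 FPKM. At an unadjusted deposited p under 0.05, 6 of the 154 were higher (3.90%) and none was lower, beside 5.86% and 5.91% of those rows. Clusters are named here by chromosome and letter, and positions are mm9 and come from the loci in the deposited table. Of members in clusters 114 of 154 (74.0%) had the higher value after 4OHT, with a median log2 ratio of 0.08, and of members outside them 78 of 118 (66.1%), with a median of 0.07. The 140 other rows of at least 1 FPKM that lay within the same spans had the higher value in 73 cases (52.1%). By the same fixed pattern, KRAB cores were found in 88 of 152 matched members within clusters (57.9%) and in 19 of 117 outside (16.2%). By chromosome, 7 held 67 members, 17 held 36 and 13 held 28, and 48, 26 and 19 of them had the higher value after 4OHT. Other rows on those chromosomes had the higher value in 50.3%, 47.1% and 49.7%.

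In 7 clusters every member had the higher value after 4OHT. For 2 of them the minimum level fixed part of this, since Zfp882 in 8-B and Zfp119b in 17-C reached 1 FPKM after 4OHT alone. With such members left out, 6 clusters of 3 or more members remained on that side, and 17-C was left with 2 members. Over all clusters 110 of 150 such members had the higher value (73.3%). The largest was 7-G (chromosome 7, 134376957 to 135034484), with 10 members and a median of 0.19. Its log2 ratios ran from 0.05 in Zfp764 (3.39 and 3.55 FPKM) to 0.24 in Zfp768 (8.11 and 9.74 FPKM). Of the 20 other rows in that span 15 had the higher value, with a median of 0.07, so other genes there leaned the same way. Cluster 7-A (4866819 to 5005325) had 6 members, from Zfp628 (4.596 and 4.91 FPKM) to Zfp784 (2.05 and 2.93 FPKM), and a median of 0.16. Cluster 9-A on chromosome 9 (19426535 to 20399637), all 6 of them KRAB genes, ran from Zfp317 (8.61 and 8.70 FPKM) to Zfp560 (2.08 and 2.44 FPKM), with a median of 0.09. Cluster 8-B (74405967 to 74494232) ran from Zfp961 (10.9 and 11.2 FPKM) to Zfp882. The 3 members of 5-A (138580930 to 139060971) had the highest median of any cluster, 0.32, with Zfp113 at the top and Zfp68 (5.83 and 6.68 FPKM) at the bottom. In its span 7 of 14 other rows had the higher value. Cluster 17-C (56004192 to 56084682) followed at 0.23, from Zfp959 (3.22 and 3.87 FPKM) to Zfp119b (0.774 and 1.09 FPKM), and 6-B (117791260 to 118405524) was near 0, from Zfp239 (4.18 and 4.21 FPKM) to Zfp637 (12.4 and 12.8 FPKM).

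The other large clusters held members on both sides of 0. Cluster 13-B (chromosome 13, 67170334 to 67931922) was the largest, with 17 members, of which 13 had the higher value after 4OHT, and a median of 0.12. Its members ran from Zfp273 (1.40 and 1.18 FPKM) to Zfp708 (1.05 and 1.52 FPKM). Cluster 17-A (21145905 to 23701193), with 14 KRAB genes among 16 members, had 10 higher and a median of 0.05, from Zfp948 (1.65 and 1.25 FPKM) to Zfp945 (2.45 and 2.89 FPKM). In 17-B (32902442 to 33768659) 10 of 12 members were higher, with a median of 0.11, from Zfp101 (7.66 and 6.66 FPKM) to Zfp955a (3.29 and 4.45 FPKM). Of the 11 that reached 1 FPKM in both conditions, 9 were higher, with a median of 0.14. Cluster 7-F (30553571 to 30954746) had 7 of 11 higher, from Zfp382 (2.06 and 1.62 FPKM) to Zfp260 (8.50 and 10.7 FPKM). In 7-D (24866963 to 26012524) 4 of 10 were higher and the median was -0.01, from Zfp61 (6.87 and 5.89 FPKM) to Zfp94 (1.78 and 2.42 FPKM).

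**Figure D5:**
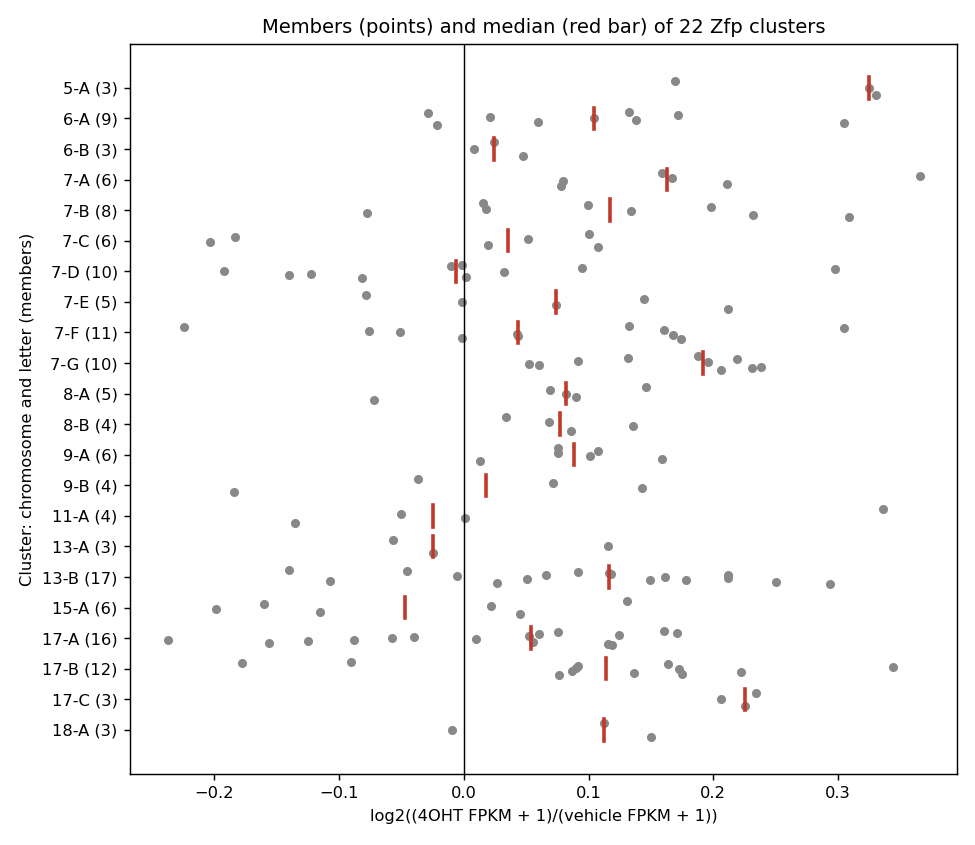
log2((4OHT FPKM + 1)/(vehicle FPKM + 1)) (x axis) of the members (grey points) of 22 Zfp clusters (y axis, named by chromosome and letter, with the number of members), with the median of each cluster as a red bar. All points of 7-G lie between 0.05 and 0.24, and the medians of 7-D, 11-A, 13-A and 15-A lie below 0.

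Among the remaining clusters the medians ran from -0.05 to 0.12. Cluster 7-B (6083091 to 7162709), with 7 of 8 members higher, ran from Zfp667 (1.16 and 1.04 FPKM) to Zfp787 (15.2 and 19.1 FPKM). Of the 7 that reached 1 FPKM in both conditions, 6 were higher. Cluster 6-A (47785660 to 48573226), with 7 of 9 higher, ran from Zfp862 (1.62 and 1.57 FPKM) to Zfp282 (7.52 and 9.52 FPKM). In 18-A the range was from Zfp35 (18.2 and 18.1 FPKM) to Zfp397 (11.1 and 12.5 FPKM). In 8-A it was from Zfp930 (8.25 and 7.80 FPKM) to Zfp866 (5.68 and 6.39 FPKM), and in 7-E from Zfp36 to Zfp60 (4.57 and 5.45 FPKM). Cluster 7-C lay between Zfp110 (8.86 and 7.56 FPKM) and Zfp606 (3.83 and 4.21 FPKM), and 9-B between Zfp653 (6.19 and 5.33 FPKM) and Zfp809. The medians of 11-A, 13-A and 15-A were below 0. Cluster 11-A lay between Zfp692 (16.5 and 14.98 FPKM) and Zfp867 (1.63 and 2.32 FPKM), and 13-A between Zfp934 (1.25 and 1.16 FPKM) and Zfp935 (6.80 and 7.45 FPKM). Cluster 15-A lay between Zfp707 (6.08 and 5.17 FPKM) and Zfp647 (2.17 and 2.47 FPKM), and 12 of 41 other rows in its span had the higher value after 4OHT.

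Promoters were read as the 250 bases before the first start that RefSeq lists for a gene (GRCm38.p6), and 225 members matched. The C/EBP letters TTGCNNAA, on either strand, occurred in 11 of them (4.89%), in 7.42% of promoters of rows of at least 1 FPKM and in 9.55% of all promoters of that length. The ETS letters CCGGAAGT occurred in 20 (8.89%), against 6.67% and 2.93%, and CCAAT in 106 (47.1%), against 37.3% and 34.5%. The median promoter of a member held 12 CpG sites, that of expressed rows 16 and that of all genes 6. The windows of 3 called members are given 5′ to 3′ with any C/EBP, ETS or CCAAT letters, on either strand, in capitals. They show that none of these 3 held the C/EBP letters, that Zfp184 held the ETS letters 1 time and that Zfp36l1 and Zfp385a each held CCAAT 1 time, on the opposite strand. No promoter was matched for Zfp36l2, the other called member, so nothing is said of it here.
Zfp184, chr13:21944844-21945093, plus strand: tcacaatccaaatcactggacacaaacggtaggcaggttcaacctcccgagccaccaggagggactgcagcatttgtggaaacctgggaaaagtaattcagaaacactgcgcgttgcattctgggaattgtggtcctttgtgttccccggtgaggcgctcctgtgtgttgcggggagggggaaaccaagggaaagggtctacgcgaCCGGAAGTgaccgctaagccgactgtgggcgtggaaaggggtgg
Zfp36l1, chr12:80113014-80113263, minus strand: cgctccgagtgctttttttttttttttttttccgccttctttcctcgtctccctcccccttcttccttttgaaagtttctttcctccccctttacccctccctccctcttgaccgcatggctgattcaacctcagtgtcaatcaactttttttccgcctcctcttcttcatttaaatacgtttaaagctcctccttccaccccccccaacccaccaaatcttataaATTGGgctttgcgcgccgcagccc
Zfp385a, chr15:103340087-103340336, minus strand: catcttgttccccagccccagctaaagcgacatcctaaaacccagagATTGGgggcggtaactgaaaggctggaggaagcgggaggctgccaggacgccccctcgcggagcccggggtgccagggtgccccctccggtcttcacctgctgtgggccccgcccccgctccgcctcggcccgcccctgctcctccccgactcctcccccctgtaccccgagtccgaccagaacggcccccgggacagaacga
A match is a description of letters and not a site of binding.

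In cluster 17-B all 11 matched promoters held CCAAT, a feature picked out after the values were seen. All matched promoters of 8-A (4), 17-C (3) and 13-A (2) held it too. In 17-B the windows of Zfp955a and its neighbour Zfp955b are the same sequence. The windows of 3 KRAB genes of 17-B show where these letters fall, marked in capitals as before.
Zfp955a, chr17:33255146-33255395, minus strand: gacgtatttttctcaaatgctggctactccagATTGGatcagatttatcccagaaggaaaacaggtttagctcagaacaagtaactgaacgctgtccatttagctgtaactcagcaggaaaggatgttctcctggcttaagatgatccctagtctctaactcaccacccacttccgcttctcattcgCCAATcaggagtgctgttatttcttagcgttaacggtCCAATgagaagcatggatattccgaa
Zfp81, chr17:33358879-33359128, minus strand: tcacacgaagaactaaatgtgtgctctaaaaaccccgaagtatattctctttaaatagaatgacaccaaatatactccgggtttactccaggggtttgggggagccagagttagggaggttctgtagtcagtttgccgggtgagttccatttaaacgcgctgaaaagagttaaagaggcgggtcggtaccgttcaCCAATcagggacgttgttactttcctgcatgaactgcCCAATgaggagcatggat
Zfp763, chr17:33033382-33033631, minus strand: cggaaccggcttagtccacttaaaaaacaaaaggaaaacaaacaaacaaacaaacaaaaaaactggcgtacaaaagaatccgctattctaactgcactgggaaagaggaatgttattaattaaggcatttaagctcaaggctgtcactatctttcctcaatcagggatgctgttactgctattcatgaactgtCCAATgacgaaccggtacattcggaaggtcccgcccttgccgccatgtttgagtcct
Zfp955a held CCAAT 3 times counting both strands, Zfp81 2 times and Zfp763 1 time. Zfp81 had 5.30 FPKM with vehicle and 6.06 FPKM after 4OHT, and Zfp763 2.25 and 2.66 FPKM. None of the members of 17-B was called.

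Several members cannot be told apart with certainty from near copies. For 22 members at least 20% of the runs of 50 coding bases also occurred in another gene, among them Zfp955a (56.6%), its neighbour Zfp955b (57.6%) and Zfp935 (88.5%). The model matched to Zfp935 holds no C2H2 finger by the pattern and may not be the one behind its row, so this share and its place among members with few fingers are uncertain. Of the 22, 19 had the higher value after 4OHT (86.4%). Zfp524 (56.7%) in 7-A and Zfp119b (26.8%) in 17-C are among them, in clusters where every member had the higher value. A further check found 13 members whose locus overlaps another row of at least 1 FPKM, and the deposited values do not separate strands as far as the sources used here tell. No called member was in either group. With both groups left out, 165 of 237 members had the higher value after 4OHT (69.6%). The part of shared reads in the cluster values was not tested.

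Other facts of the samples bear on these values. Cebpa itself fell from 109 to 42.8 FPKM, to 39.2% of vehicle. Markers of the labelled progenitors were present, and all 4 listed stem and progenitor genes (Cd34, Kit, Gata2 and Erg) rose, with a summed level of 403 FPKM with vehicle and 697 FPKM after 4OHT. Of 5 neutrophil markers 4 fell (S100a8, S100a9, Lcn2 and Elane). The fifth, Mpo, had 496 and 603 FPKM, was not called and made up much of the sums of 1324 and 1014 FPKM. Of 4 monocyte markers 3 fell and the sum went from 74.6 to 40.02 FPKM. Of 3 mast cell and basophil markers Cpa3 rose, from 562 to 975 FPKM, and made up most of the sums of 630 and 1044 FPKM. Mcpt8 (61.2 and 61.0 FPKM) and Ms4a2 (7.07 and 8.94 FPKM) were not called. Of 3 erythroid markers only Gata1 reached 1 FPKM (0.609 and 1.23 FPKM) and was not called. Among lymphoid markers, Ebf1 rose from 0.754 to 1.54 FPKM and Cd3e was listed at 0 in both conditions. The part of such shifts between cell types in the Zfp values was not tested, and in a bulk sample fewer cells of a type and less RNA per cell cannot be told apart.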

How the data were processed

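RNA sequencing of 2 samples, 1 per condition, was used. The authors deposited 1 table with FPKM values per gene and condition, a p-value and a q-value, a test score and a fold ratio, per the file headers. Cuffdiff 2.0.2, Bowtie2 2.0.0.7, CASAVA 1.8.2 and the build mm9 are listed without roles, per the submitters' processing notes. Annotation and strand setting are not given in the sources used here. No read counts are held, so depth is unknown and no counting interval is given.

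Members and gene lists were chosen with earlier results of these data known. Calls use the authors' deposited status and a q under 0.05 over all tested rows. Starts are written from 1. Named genes were all called members, the 8 highest in mean FPKM, members of the CCCH and blood lists, 3 rows on each side of 1 FPKM, the 6 smallest q not called, the highest and lowest log2 ratio of each cluster, and called genes of the pathway lists. Other genes were named after their values were seen. Part of the lymphoid marker list is not reported here. Finger counts use the longest coding sequence in GENCODE M21, matched by symbol (263) or older symbol (6). The KRAB core was read as phenylalanine, an acidic residue, phenylalanine or leucine, glutamate-tryptophan and leucine at their usual spacing. Python 3.11.15, pandas 2.3.3 and Biopython 1.88 were used, and the functions were tested on made-up rows.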

Additional observations from a re-analysis of the deposited data

How the results depend on the processing

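With a q under 0.10 in the authors' deposited table, 5 members were called higher in place of 3, and with a minimum of 2 FPKM 0 were called lower in place of 1, since Zfp36l1 is then no member. With that minimum 2 were called higher. The median log2 ratio of the members, 0.08, was 0.10 with a pseudocount of 0.1 (0.0955), with none (0.0968) or with both conditions scaled to the same total FPKM (0.0968), where 75.7% of members and 55.97% of all rows of at least 1 FPKM had the higher value after 4OHT. It was 0.0745 without the 35 members that share sequence or overlap another row, an alternative added after the data were seen. Of 77 genes named by the rule, Zfp106 and Zfp35, neither of them called, changed sign with that scaling, which moves every gene by the same factor. Clusters numbered 22 at a gap of 0.5 Mb and 21 at 2 Mb. No paired analysis was possible because each condition has 1 deposited value that joins its replicates, and for the same reason no replicate could be left out. Depth is unknown, so a difference that was not called may have been too small to detect.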
